A study of Mus musculus with 9 samples.

Results

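Transcripts of 10 genes of haem breakdown and iron handling were followed in 4T1 cells, which are mouse mammary carcinoma cells of BALB/c origin. They were chosen by name, as the rows of the count tables whose Ensembl IDs carry the symbols Hmox1, Blvra, Blvrb, Fth1, Ftl1, Tfrc, Slc40a1, Slc11a2, Ireb2 and Ncoa4, out of 55416 genes in all. The cells were sequenced in 3 groups of 3 libraries, 9 in all. The MRC+L group had MRC nanoparticles in DMEM medium for 12 h and 660 nm light for 3 min at 180 mW/cm2, a unit that the protocol text prints as mV. The MRC group had MRC nanoparticles in the same medium for 12 h without light. The PBS group had fresh DMEM medium without particles for 12 h and is labelled untreated. All groups share 1 cell line and no group had light without particles, so light was compared in particle-loaded cells. The labels neither spell out MRC nor say when in the 12 h the light was given. They do not say that libraries came from separate cultures, so p-values measure the spread between these libraries, which may be technical.

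Haem oxygenase opens the haem ring and releases iron, carbon monoxide and biliverdin, which biliverdin reductases turn into bilirubin. Iron set free in this way, or brought in by the transferrin receptor and the divalent metal transporter, is stored in ferritin, a shell of heavy and light chains, or leaves the cell through ferroportin. Iron regulatory proteins bind hairpins in the messengers of ferritin, ferroportin and the transferrin receptor when iron is scarce, which blocks translation of those with a hairpin before the coding part and protects the receptor messenger from decay. Counts of transcripts do not show that translational part of the control.

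Such hairpins, called iron-responsive elements, are shown here for the members in which a strict pattern of them was found. All protein-coding transcripts of GENCODE M21, an annotation of GRCm38, were searched on the transcript strand for CNNNNNCAGTGN, with no G at the last place, with 5 paired bases on either side of the loop and at least 3 of 5 below the bulged C. A window of 27 bases matched in 4 of the 10 members, against 68 of 21901 genes searched (0.31%). These 4 are the members named above as known to hold such hairpins, so the shares are not a test of enrichment. In each sequence the capitals mark the bulged C and the apical loop.
Fth1, 5′ UTR, chr19:9982733-9982759, plus strand: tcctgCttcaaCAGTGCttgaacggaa
Ftl1, 5′ UTR, chr7:45459780-45459806, minus strand: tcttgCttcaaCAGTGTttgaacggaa
Slc40a1, 5′ UTR, chr1:45925466-45925492, minus strand: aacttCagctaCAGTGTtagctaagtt
Tfrc, 3′ UTR, chr16:32631220-32631246, plus strand: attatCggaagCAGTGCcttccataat
Tfrc, 3′ UTR, chr16:32631711-32631737, plus strand: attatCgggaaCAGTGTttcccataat
The windows of Fth1 and Ftl1 share 25 of 27 bases. Tfrc held 4 such windows, and the first and last of them, which are printed, share 22 of 27 bases. Among 88 further genes of haem and iron metabolism searched, the pattern was found in Alas2 and Keap1. A match is a match of letters and does not show that a protein binds there. Nor does the lack of a match, as for Slc11a2, show that a messenger holds no such element, because the pattern is strict.

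Library totals lay between 15019765 and 20044166 counts. Levels are CPM, counts scaled to the size of the library, with sizes corrected by TMM, the trimmed mean of M values. At this depth 3 counts, the level that a count of 0 allows for counting error alone, stood for 0.149 to 0.201 CPM. The biological coefficient of variation was 0.0578 within MRC+L, 0.0806 within MRC and 0.280 within PBS. PBS replicate 2 stood apart: the shortest 10% of tested genes lay 0.92 log2 units higher in it, relative to the longest 10%, than the mean over libraries, against -0.25 to 0.084 in the other 8. Of the 9 members with counts in PBS, 5 were highest and 4 lowest in PBS replicate 2, and the 5 highest (Hmox1, Blvra, Blvrb, Fth1 and Ftl1) are those with the shorter gene models, of 1340 to 3469 exonic bases against 6185 to 9479 for the other 4. Member results against PBS are therefore also given without that library where a call, a direction or a size hangs on it. For Hmox1 and Slc11a2 the range over all fits with 1 library left out is given instead. For single genes outside the members, levels and fold changes against PBS are those with all libraries. In bulk RNA, fewer cells of a kind and less RNA per cell cannot be told apart.

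The epithelial keratins Krt8 and Krt18 were present in every library, while Epcam, an epithelial adhesion gene, had 0 to 5 counts. Krt8 fell to 311 ± 5.34 CPM in MRC+L and 352 ± 18.2 CPM in MRC, against 718 ± 172.6 CPM in PBS, and Krt18 to 175 ± 6.12 CPM in MRC+L and 201 ± 3.97 CPM in MRC, against 577 ± 219 CPM in PBS. Cldn3 and Cldn4, claudins of the same list, rose in both groups, and Krt7 and Cdh1 fell in MRC+L. With 1 library left out, the calls of Krt8 and Krt18 held in all 9 fits. The call of Cldn3 held in 5 of 9 fits in each group, and those of Krt7 and Cdh1 in 6 of 9 in MRC+L. For Cldn4 it held in 9 of 9 fits in MRC+L and 6 of 9 in MRC. Of 10 epithelial markers 5 to 6 exceeded 1 CPM per library, and their summed level was 605 to 617 CPM in MRC+L, 681 to 714 CPM in MRC and 1075 to 1917 CPM in PBS. Macrophages handle much haem iron in the body, so 12 leukocyte and macrophage markers were summed, giving 34.0 to 39.3 CPM in MRC+L, 35.02 to 42.1 CPM in MRC and 28.4 to 44.9 CPM in PBS. Of these, 2 to 3 exceeded 1 CPM, Adgre1, Clec4f and Spic had no count in any library, and Ptprc had 0 to 3. Cd68, a lysosomal membrane gene of macrophages, averaged 18.7 ± 1.27 CPM in MRC+L, 19.3 ± 2.81 CPM in MRC and 9.38 ± 2.36 CPM in PBS (SD, n = 3 each), and it rose in both exposed groups. Fcgr1, an Fc receptor, was higher in both as well, at 0.542 ± 0.239 CPM in MRC+L and 1.13 ± 0.106 CPM in MRC, against 0.037 ± 0.0322 CPM in PBS. Its PBS mean lay below the floor of 3 counts, so the size of that rise is uncertain. Cd14, the third marker tested, was not called, at 16.7 ± 1.68 CPM in MRC+L and 18.6 ± 2.08 CPM in MRC, against 24.1 ± 7.42 CPM in PBS. The part of these markers in the results below was not tested. Erythroid markers summed to at most 1.37 CPM in any library, with 0 to 1 counts for each of 4 globin genes. Fibroblast and endothelial markers summed to 77.6 to 88.6 CPM in MRC+L, 80.7 to 97.6 CPM in MRC and 46.8 to 84.0 CPM in PBS.

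Of the 10 members 9 passed the filter on low counts, and Slc40a1 did not. With particles and light, 5 members rose against PBS (Hmox1, Blvrb, Ftl1, Tfrc and Slc11a2) and 1, Blvra, fell, at an adjusted p under 0.05 in edgeR's quasi-likelihood test. Of the 13439 genes tested 46.2% were called, 21.8% higher and 24.5% lower. With particles alone, 4 rose against PBS (Hmox1, Blvrb, Ftl1 and Slc11a2) and Blvra fell, where 37.6% of all genes were called, 17.8% higher and 19.8% lower. Without PBS replicate 2 the counts were 7 higher and 1 lower for MRC+L against PBS, and 6 higher and 1 lower for MRC against PBS, where 55.7% of genes (27.4% higher, 28.3% lower) and 50.6% of genes (24.7% higher, 26% lower) were called. Counting members whose 3 libraries all lay on one side of all PBS libraries gave 6 higher and 1 lower in MRC+L, where 28.2% of genes lay higher and 28.1% lower (56.3% in all). In MRC 5 lay higher and 1 lower, where 24.1% of genes lay higher and 24.2% lower (48.3% in all). The median log2 fold change of the 9 tested members was 0.76 for MRC+L against PBS and 0.61 for MRC against PBS, beside -0.03 over all genes tested in either comparison. Both comparisons share the PBS libraries. With so large a share of genes called, a call for 1 member is a common event in these libraries.

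**Figure D1:**
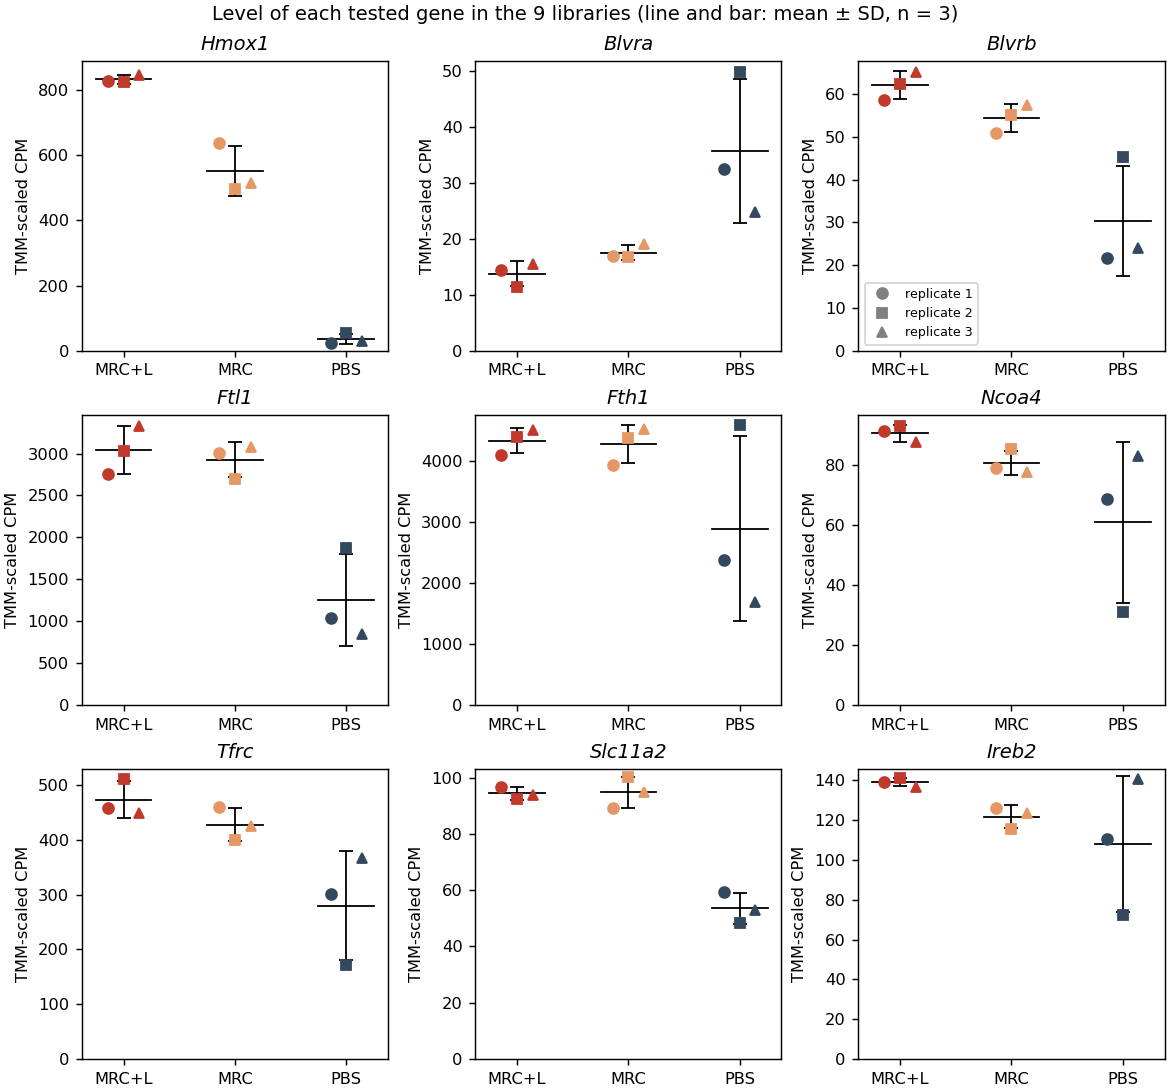
TMM-scaled CPM of the 9 tested members in each library, from left MRC+L, MRC and PBS, with a marker shape per replicate and the mean ± SD (n = 3) in black. Hmox1 is at 497 CPM or more in all exposed libraries and at 54.9 CPM or less in PBS, and the PBS libraries are the widest spread group for most members.

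Hmox1 (ENSMUSG00000005413, GRCm39 chr8:75820249-75827217, plus strand) encodes haem oxygenase 1, the inducible enzyme that cleaves haem. It had 826, 823 and 846 CPM in the MRC+L libraries, 638, 497 and 515 CPM in the MRC libraries, and 23.5, 54.9 and 30.4 CPM in the PBS libraries. No group overlapped another, and the highest PBS library stood far under the lowest exposed one. Against PBS, Hmox1 rose 22.9-fold with particles and light (log2 fold change 4.52 ± 0.29 SE, adjusted p = 3.33e-06) and 15.2-fold with particles alone (3.92 ± 0.29, adjusted p = 8.78e-06). Both calls held with any 1 library left out, with log2 fold changes of 4.28 to 4.95 in MRC+L and 3.69 to 4.35 in MRC. By its level per length, in TPM (counts per base of gene model, scaled to 1 sum in all libraries), Hmox1 ranked 57th of 13439 tested genes in MRC+L, 99th in MRC and 2806th in PBS.

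Hmox1 levels were higher with light than with particles alone, and whether that difference was called depended on how the spread was estimated. The MRC+L mean was 832 ± 12.8 CPM and the MRC mean 550.0 ± 76.8 CPM (SD, n = 3 each), a log2 fold change of 0.60 ± 0.25 SE or 1.51-fold. With all 9 libraries sharing 1 spread it was not called (unadjusted p = 0.0404, adjusted p = 0.988). In that fit 0 of 13439 genes were called (0%), with 573 at an unadjusted p under 0.05, while DESeq2 called 14 and limma-voom with sample weights 262. Fitted to the 6 exposed libraries alone, where 5.05% of genes were called (3.13% higher, 1.91% lower), Hmox1 was higher with light (0.60 ± 0.08, adjusted p = 4.66e-05). It was also higher without PBS replicate 2 (0.60, adjusted p = 0.00224), where 0.647% of genes were called (0.313% higher, 0.335% lower), and in limma-voom with sample weights (0.60, adjusted p = 0.00174). The lowest MRC+L library lay above the highest MRC library, as was the case for 11.8% of all tested genes. Over the fits with 1 library left out the log2 fold change was 0.53 to 0.72 and the adjusted p 0.00224 to 1.00. Of the 10 members, Hmox1 was the one called for light in any of the fits tried.

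Hmox2, the constitutive haem oxygenase gene, moved the other way, and it is named here after its values were seen. It averaged 31.0 ± 1.80 CPM in MRC+L, 34.5 ± 2.38 CPM in MRC and 52.9 ± 9.26 CPM in PBS (SD, n = 3 each). It fell in MRC+L (log2 fold change -0.77, adjusted p = 0.00132) and in MRC (-0.62, adjusted p = 0.00551) against PBS. Per length, the ratio of Hmox1 to Hmox2 was 32.2 to 37.0 in MRC+L, 17.7 to 25.4 in MRC and 0.586 to 1.10 in PBS. The inducible gene thus stood far above the constitutive one in exposed cells. In PBS the ratio was 0.586 in replicate 1, 1.10 in replicate 2 and 0.860 in replicate 3. It rests on lengths of gene models, so which gene was higher in PBS is uncertain. Not per length, Hmox1 averaged 36.3 CPM in PBS, below Hmox2.

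The biliverdin reductases, which act after haem oxygenase, moved in opposite directions. Blvra (GRCm39 chr2:126912585-126939004, plus strand) encodes the reductase that makes the common form of bilirubin in adults, and it had 14.5, 11.4 and 15.6 CPM in MRC+L, 16.97, 16.7 and 19.1 CPM in MRC, and 32.5, 49.9 and 24.8 CPM in PBS. Every exposed library lay under every PBS library. Blvra fell in MRC+L to a log2 fold change of -1.37 ± 0.23 SE against PBS (2.58-fold lower, adjusted p = 0.0011) and in MRC to -1.02 ± 0.23 (2.03-fold lower, adjusted p = 0.00639). Both calls held in all 9 fits with 1 library left out, with the smallest change, -1.05 for MRC+L and -0.71 for MRC, without PBS replicate 2.

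Blvrb (GRCm39 chr7:27147403-27165569, plus strand) encodes biliverdin reductase B, also known as flavin reductase. It had 58.7, 62.3 and 65.2 CPM in MRC+L, 51.0, 55.0 and 57.4 CPM in MRC, and 21.7, 45.2 and 24.1 CPM in PBS. The exposed groups lay above PBS with no overlap. Blvrb rose in MRC+L (log2 fold change 1.03 ± 0.24 SE, 2.05-fold, adjusted p = 0.00538) and in MRC (0.85 ± 0.23, 1.80-fold, adjusted p = 0.0176). With PBS replicate 1 left out the call in MRC was lost (adjusted p = 0.0609), as it was without MRC replicate 2 (0.0548) or 3 (0.058) and with the 6 libraries of both groups alone (0.0527). Without PBS replicate 2 the changes were 1.44 in MRC+L and 1.25 in MRC.

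The ratio of Blvrb to Blvra counts within a library does not depend on how libraries are scaled. It was 4.04, 5.47 and 4.19 in MRC+L, 3.00, 3.29 and 3.01 in MRC, and 0.667, 0.906 and 0.970 in PBS. Counts of Blvrb were thus lower than those of Blvra in all 3 PBS libraries and at least 3.00 times as high in all 6 exposed libraries. The mean ratio was 4.57 ± 0.786 in MRC+L, 3.10 ± 0.166 in MRC and 0.848 ± 0.16 in PBS (SD, n = 3 each), and no group overlapped another. An exact two-sided permutation test gave p = 0.1 for each of these 3 comparisons, the smallest that 3 against 3 libraries allow (adjusted p = 0.12 over 6 ratio tests).

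**Figure D2:**
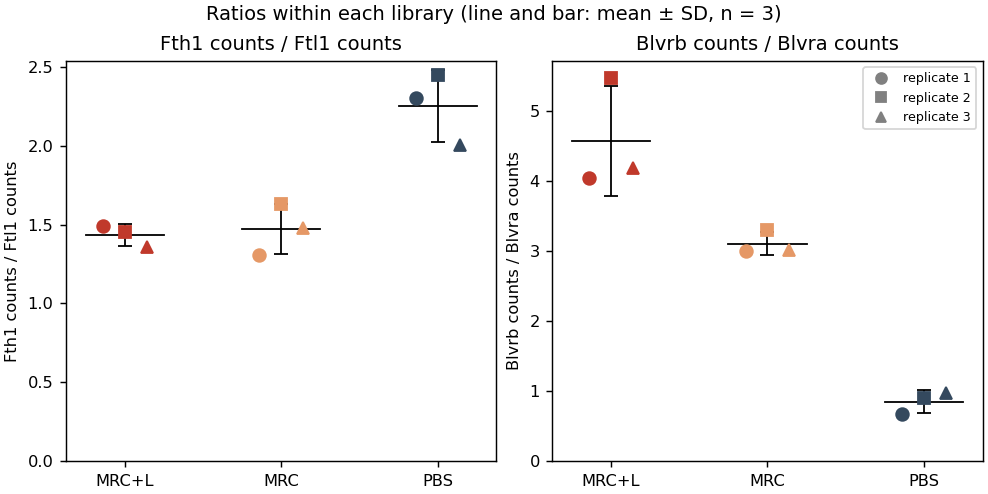
Ratio of Fth1 to Ftl1 counts (left) and of Blvrb to Blvra counts (right) in each library, from left MRC+L, MRC and PBS, with the mean ± SD (n = 3) in black. The Fth1 to Ftl1 ratio is at most 1.63 in the exposed libraries and at least 2.002 in PBS, and the Blvrb to Blvra ratio is at least 3.00 in the exposed libraries and under 1 in PBS.

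Ferritin is the iron store of the cytosol, and its chains did not move by the same amount. Ftl1 (GRCm39 chr7:45107368-45109308, minus strand), the light chain, had 2752, 3034 and 3327 CPM in MRC+L, 3011, 2691 and 3075 CPM in MRC, and 1035, 1877 and 842 CPM in PBS. The exposed libraries were all above the highest PBS library. Ftl1 rose 2.43-fold in MRC+L (log2 fold change 1.28 ± 0.25 SE, adjusted p = 0.00253) and 2.34-fold in MRC (1.23 ± 0.25, adjusted p = 0.00401). Both calls held in all 9 fits with 1 library left out. Without PBS replicate 2 the changes were larger, at 1.69 in MRC+L and 1.63 in MRC. By TPM, Ftl1 ranked 4th of the tested genes in MRC+L, 5th in MRC and 24th in PBS. Ftl1 shares at most 464 of its 1340 exonic bases with other annotated genes. Ftl1-ps1, a close copy, had 213 to 288 counts in MRC+L, 238 to 342 in MRC and 73 to 193 in PBS. The share of reads given to each is therefore uncertain.

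Fth1 (GRCm39 chr19:9957962-9962462, plus strand), the heavy chain that oxidises iron on its way into the shell, had 4103, 4404 and 4509 CPM in MRC+L, 3940, 4381 and 4537 CPM in MRC, and 2385, 4594 and 1686 CPM in PBS. The exposed groups overlapped PBS through 1 library, PBS replicate 2, whose level was above all others. With all libraries Fth1 was not called in MRC+L (log2 fold change 0.59 ± 0.29 SE, adjusted p = 0.124) or in MRC (0.57 ± 0.29, adjusted p = 0.151) against PBS. Without PBS replicate 2 it was higher by 1.09 in MRC+L (adjusted p = 5.21e-08) and by 1.07 in MRC (adjusted p = 9.37e-08).

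The ratio of Fth1 to Ftl1 counts was 1.49, 1.45 and 1.36 in MRC+L, 1.31, 1.63 and 1.48 in MRC, and 2.30, 2.45 and 2.002 in PBS. Here PBS replicate 2 lay with the other PBS libraries, and all exposed libraries lay lower. The mean was 1.43 ± 0.0698 in MRC+L, 1.47 ± 0.16 in MRC and 2.25 ± 0.227 in PBS (SD, n = 3 each). The exact two-sided permutation p against PBS was 0.1 for both, the smallest possible (adjusted p = 0.12), and 0.9 between MRC+L and MRC. Both chains together made up 0.689% to 0.776% of all counts in MRC+L, 0.687% to 0.766% in MRC and 0.258% to 0.627% in PBS. These counts are not per length: the gene model of Fth1 spans 3469 exonic bases although the transcript with the hairpin has 929, and that of Ftl1 has 968, so a TPM made from gene models understates Fth1.

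Ncoa4 (GRCm39 chr14:31881822-31901812, plus strand) encodes the receptor that carries ferritin to the lysosome, where its iron is released. It had 91.2, 93.1 and 87.4 CPM in MRC+L, 78.8, 85.2 and 77.6 CPM in MRC, and 68.6, 30.9 and 82.8 CPM in PBS. MRC+L lay above PBS, with PBS replicate 2 lowest, and MRC overlapped PBS. With all libraries Ncoa4 was not called in MRC+L (log2 fold change 0.58 ± 0.27 SE, adjusted p = 0.11) or in MRC (0.41 ± 0.27, adjusted p = 0.271). It was called in MRC+L without PBS replicate 2 (0.26, adjusted p = 0.0237) or PBS replicate 3 (0.86, adjusted p = 0.0158), and in MRC without PBS replicate 3 (0.69, adjusted p = 0.0451), while without PBS replicate 2 the MRC value was 0.083.

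Slc11a2 (GRCm39 chr15:100285779-100322953, minus strand) encodes DMT1, which moves ferrous iron out of endosomes and into cells. It had 96.8, 92.5 and 94.0 CPM in MRC+L, 89.2, 100.3 and 94.9 CPM in MRC, and 59.4, 48.3 and 53.0 CPM in PBS. The exposed groups lay well above PBS, and PBS replicate 2 stood close to its group. Slc11a2 rose 1.76-fold in MRC+L (log2 fold change 0.82 ± 0.10 SE, adjusted p = 0.00018) and 1.77-fold in MRC (0.82 ± 0.10, adjusted p = 0.00023), and with 1 library left out the changes were 0.75 to 0.89 in MRC+L and 0.75 to 0.90 in MRC. Between MRC+L and MRC the log2 difference was -0.01 ± 0.10. Slc11a2 shares 402 of its 6354 exonic bases with Gm5475, which had 0 to 2 counts per library.

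Tfrc (GRCm39 chr16:32427738-32451612, plus strand), the receptor that takes up transferrin-bound iron, had 459, 512 and 450 CPM in MRC+L, 460, 399 and 425 CPM in MRC, and 301, 172 and 367 CPM in PBS. All exposed libraries lay above all PBS libraries, and PBS replicate 2 was again the lowest. Tfrc rose 1.69-fold in MRC+L (log2 fold change 0.76 ± 0.23 SE, adjusted p = 0.0199), a call lost without MRC+L replicate 2 (adjusted p = 0.0668) and with the 6 libraries of both groups alone (0.0561). Without PBS replicate 2 that change was smaller, at 0.50 or 1.42-fold (adjusted p = 0.000167). In MRC Tfrc was at 0.61 ± 0.22 and missed the threshold (adjusted p = 0.0553), but it was called without PBS replicate 2 (0.35, adjusted p = 0.00457) or PBS replicate 3 (0.85, adjusted p = 0.00645). Higher Tfrc and higher Ftl1 transcript than in any PBS library were thus seen in the same libraries of both exposed groups. For MRC+L against MRC the log2 fold change was 0.15 for Tfrc and 0.05 for Ftl1, and neither was called.

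Ireb2 (GRCm39 chr9:54771073-54819814, plus strand) encodes iron regulatory protein 2, a protein known to bind iron-responsive elements. It had 139, 141 and 137 CPM in MRC+L, 126, 116 and 124 CPM in MRC, and 111, 72.5 and 141 CPM in PBS. Both exposed groups overlapped PBS, while MRC+L lay above MRC. It was not called in MRC+L (log2 fold change 0.37 ± 0.19 SE, adjusted p = 0.146) or in MRC (0.17 ± 0.19, adjusted p = 0.508) against PBS. Without PBS replicate 3 it was called in MRC+L (0.60, adjusted p = 0.00945). Without PBS replicate 2 the MRC value turned to -0.05 and the MRC+L value fell to 0.15. Aco1, the gene of the other iron regulatory protein, was not called in either comparison.

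Slc40a1 (GRCm39 chr1:45947228-45965683, minus strand) encodes ferroportin, the known iron exporter of mammalian cells. It had 0 counts in all 3 MRC+L libraries, 2, 0 and 1 counts in the MRC libraries and 0 in all 3 PBS libraries. It was below the floor of 3 counts in every library, so no fold change is given, and no difference was detectable at this depth. Its partner oxidases Heph and Hephl1 had 0 to 4 and 0 to 2 counts in any library.

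**Figure D3:**
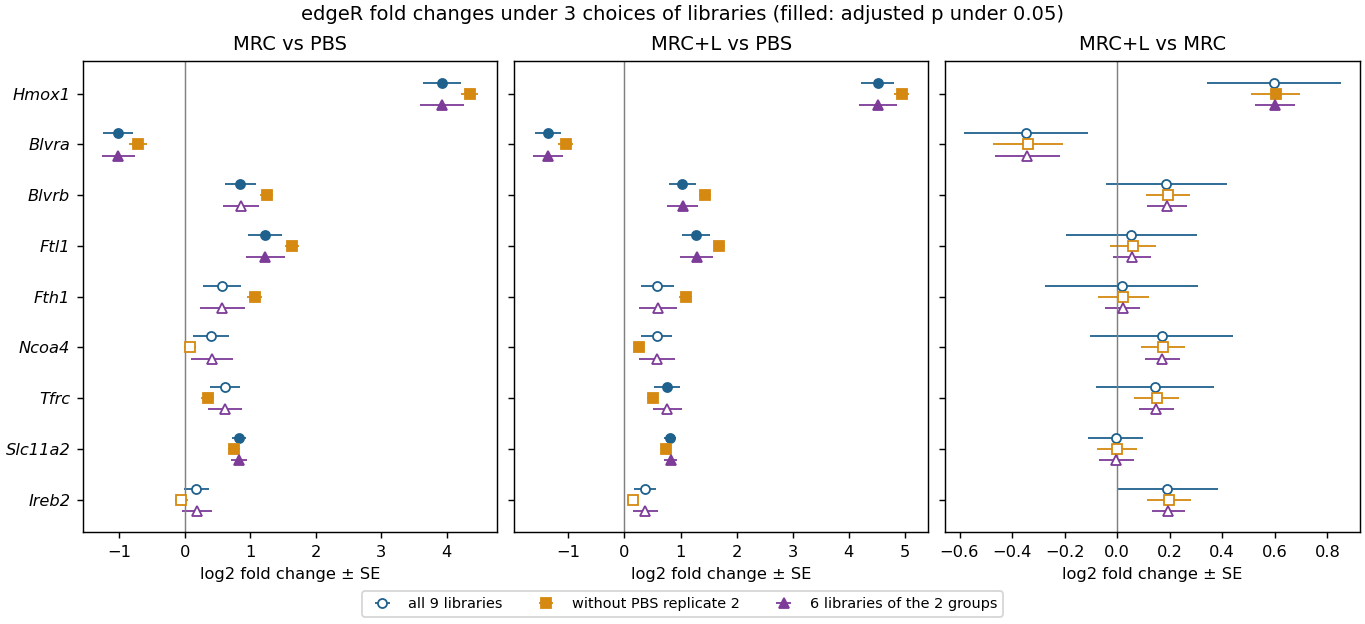
edgeR log2 fold change ± SE of the 9 tested members in each comparison, with all 9 libraries (circles), without PBS replicate 2 (squares) and with the 6 libraries of the compared groups alone (triangles), filled where the adjusted p is under 0.05. Hmox1, Blvra, Ftl1 and Slc11a2 are filled under all 3 choices against PBS, Fth1 under 1 of them, and Hmox1 is the single member filled for MRC+L against MRC.

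Of the 9 tested members 5 did not overlap between MRC+L and MRC, 4 higher and 1 lower with light, where 24.4% of all tested genes did not overlap (11.8% higher, 12.6% lower). With all 9 libraries the 8 other than Hmox1 had log2 fold changes of -0.35 to 0.19 with SE of 0.10 to 0.29. That fit shares 1 spread with PBS, where the biological coefficient of variation was 0.280, against 0.0806 in MRC and 0.0578 in MRC+L. These SE therefore include the spread of PBS, a group outside this comparison. None of the 8 was called in the fits tried. In edgeR's test on the 6 exposed libraries alone, 6 members, Hmox1 among them, had an unadjusted p under 0.05. So did 2715 of 12955 genes in that fit. The adjusted p there was 0.0751 for Ireb2, 0.111 for Blvra, 0.145 for Ncoa4 and 0.147 for Blvrb. It was 0.209 for Tfrc, 0.690 for Ftl1, 0.895 for Fth1 and 0.985 for Slc11a2. With all 9 libraries the log2 fold change of Blvra was -0.35 ± 0.24, and the groups did not overlap. Ireb2 (0.19 ± 0.19), Blvrb (0.19 ± 0.23) and Ncoa4 (0.17 ± 0.27) also lay higher in each MRC+L library than in each MRC library. Fth1 (0.02 ± 0.29) and Ftl1 (0.05 ± 0.25) overlapped between these groups.

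A further 88 genes of haem and iron metabolism were examined in 6 lists, of which 76 were tested. Against PBS 18 rose and 21 fell in MRC+L, and 17 rose and 16 fell in MRC. Without PBS replicate 2 it was 20 and 22 in MRC+L and 22 and 18 in MRC. Over all 13439 genes 21.8% rose and 24.5% fell in MRC+L (46.2% in all), and 17.8% rose and 19.8% fell in MRC (37.6% in all), and the counts of each list stand against these shares. The median log2 fold change was -0.05 in MRC+L and -0.06 in MRC. None was called for MRC+L against MRC with all libraries, and 1, Urod, was lower with light in the 6 exposed libraries alone (log2 fold change -0.40, adjusted p = 0.0205).

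Haem synthesis genes moved in both directions. Of 16 tested, 6 rose and 5 fell in MRC+L, and 6 rose and 3 fell in MRC. Cpox, which makes protoporphyrinogen in mitochondria, averaged 76.5 ± 4.31 CPM in MRC+L, 72.2 ± 2.07 CPM in MRC and 29.7 ± 7.004 CPM in PBS (SD, n = 3 each), a rise on the log2 scale of 1.36 in MRC+L and 1.28 in MRC (adjusted p = 0.000108 in MRC+L and 0.000211 in MRC). Ppox, the enzyme of the step after it, averaged 14.02 ± 0.307 CPM in MRC+L, 14.6 ± 1.72 CPM in MRC and 26.0 ± 2.62 CPM in PBS. It fell by 0.89 on the log2 scale in MRC+L (adjusted p = 0.000405) and by 0.83 in MRC (adjusted p = 0.000759). Urod, the enzyme before Cpox, fell to 18.8 ± 0.325 CPM in MRC+L and 24.8 ± 1.14 CPM in MRC, against 46.8 ± 15.6 CPM in PBS (adjusted p = 0.000556 in MRC+L and 0.00511 in MRC). Clpx is a mitochondrial unfoldase that acts on the first enzyme of the pathway. It rose to 67.9 ± 2.52 CPM in MRC+L and 67.6 ± 5.09 CPM in MRC, against 45.7 ± 0.477 CPM in PBS (adjusted p = 0.000889 in MRC+L and 0.00116 in MRC).

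Genes that move, sense and break down haem also moved in both directions. Of 13 tested, 3 rose and 3 fell in MRC+L, and 4 rose and 3 fell in MRC, with a median log2 fold change of 0.01 in MRC+L and -0.02 in MRC. Slc48a1, which carries haem out of lysosomes, averaged 344 ± 11.6 CPM in MRC+L, 327 ± 9.12 CPM in MRC and 149.7 ± 20.1 CPM in PBS, and rose 2.30-fold in MRC+L (adjusted p = 2.99e-05) and 2.18-fold in MRC (adjusted p = 6.15e-05). Flvcr1, a transporter first described as a haem exporter, averaged 133 ± 4.54 CPM in MRC+L, 129 ± 7.39 CPM in MRC and 60.0 ± 12.1 CPM in PBS, and rose in both (adjusted p = 0.000156 in MRC+L and 0.000271 in MRC). Por, the reductase that supplies electrons to haem oxygenase, fell to 142.5 ± 6.36 CPM in MRC+L and 148 ± 5.04 CPM in MRC, against 262 ± 38.2 CPM in PBS (adjusted p = 0.000252 in MRC+L and 0.000477 in MRC). Nfe2l2 and Keap1, also on this list and likewise named after their values were seen, were called in neither group. Nfe2l2 had a log2 fold change of 0.01 ± 0.09 SE in MRC+L (adjusted p = 0.938) and -0.02 ± 0.09 in MRC (0.886). Keap1 had -0.02 ± 0.09 in MRC+L (adjusted p = 0.865) and -0.10 ± 0.09 in MRC (0.392). Bach1, the haem-sensing repressor of Hmox1, is named after its values were seen. It rose to 75.5 ± 1.28 CPM in MRC+L and 67.1 ± 1.38 CPM in MRC, against 32.7 ± 10.1 CPM in PBS (adjusted p = 0.000637 in MRC+L and 0.00194 in MRC).

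Of 10 tested genes of iron uptake and reduction 4 rose and 2 fell in MRC+L and in MRC. Steap3, the endosomal reductase that readies iron for DMT1, rose to 35.7 ± 0.806 CPM in MRC+L and 38.4 ± 0.97 CPM in MRC, against 17.3 ± 1.69 CPM in PBS (adjusted p = 4.46e-05 in MRC+L and 3.34e-05 in MRC). Steap1 rose to 91.4 ± 2.84 CPM in MRC+L and 89.2 ± 3.27 CPM in MRC, against 59.2 ± 12.4 CPM in PBS (adjusted p = 0.00435 in MRC+L and 0.00712 in MRC). Steap4, another reductase of this family, fell to 3.26 ± 0.765 CPM in MRC+L and 3.71 ± 0.469 CPM in MRC, against 6.49 ± 0.246 CPM in PBS. The adjusted p was 0.00365 in MRC+L and 0.0119 in MRC, where the call was lost without MRC replicate 1 (adjusted p = 0.0534). Cybrd1, an iron reductase of the gut, rose at a low level, to 1.02 ± 0.33 CPM in MRC+L and 1.09 ± 0.0757 CPM in MRC, against 0.248 ± 0.148 CPM in PBS (adjusted p = 0.00608 in MRC+L and 0.00551 in MRC), on 2 to 23 counts per library.

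In the list of iron export and systemic control 7 of 11 genes were too low to test, among them Hamp, the gene of hepcidin, with 0 to 2 counts. Of the 4 tested 1 rose and 3 fell in each exposed group. Cp, the secreted ferroxidase ceruloplasmin, fell to 95.6 ± 12.6 CPM in MRC+L and 110.5 ± 9.18 CPM in MRC, against 257 ± 28.8 CPM in PBS (log2 fold change -1.42 in MRC+L, adjusted p = 2.67e-05, and -1.22 in MRC, adjusted p = 9.3e-05). Hfe, a partner of the transferrin receptor, fell to 1.59 ± 0.0992 CPM in MRC+L and 1.501 ± 0.0961 CPM in MRC, against 4.799 ± 0.699 CPM in PBS (adjusted p = 0.00028 in MRC+L and 0.000272 in MRC). Neo1, which encodes neogenin, rose to 313 ± 10.2 CPM in MRC+L and 293 ± 28.2 CPM in MRC, against 155 ± 54.0 CPM in PBS (adjusted p = 0.00463 in MRC+L and 0.0094 in MRC).

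Of 12 tested genes of iron regulation and delivery inside the cell, 2 rose and 1 fell in MRC+L, and 1 rose and 1 fell in MRC. Without PBS replicate 2 it was 2 and 1 in MRC+L and 3 and 1 in MRC. Their median log2 fold change was 0.03 in MRC+L and 0.0086 in MRC. Mon1a, which acts in vesicle traffic, rose to 13.4 ± 0.98 CPM in MRC+L and 14.4 ± 0.484 CPM in MRC, against 6.65 ± 1.46 CPM in PBS (adjusted p = 0.00101 in MRC+L and 0.0007 in MRC). Vdac2, a mitochondrial channel, fell (adjusted p = 0.0036 in MRC+L and 0.0121 in MRC), and Herc2, a ubiquitin ligase, was called in MRC+L (112.7 ± 7.46 CPM in MRC+L against 58.1 ± 27.1 CPM in PBS, adjusted p = 0.0234), a call lost with PBS replicate 1 or either of MRC+L replicates 1 and 2 left out.

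Of 21 tested genes of mitochondrial iron and iron-sulphur clusters 2 rose and 7 fell in MRC+L, and 1 rose and 4 fell in MRC. Their median log2 fold change was -0.39 in MRC+L and -0.25 in MRC with all libraries, and -0.13 in MRC+L and -0.02 in MRC without PBS replicate 2, when 3 rose and 7 fell in MRC+L and 3 rose and 4 fell in MRC. Nfs1, which supplies sulphur to the clusters, fell to 39.9 ± 3.38 CPM in MRC+L and 42.8 ± 2.07 CPM in MRC, against 62.6 ± 8.20 CPM in PBS (adjusted p = 0.0018 in MRC+L and 0.00556 in MRC). Isca2, a late assembly factor, fell as well (adjusted p = 0.00284 in MRC+L and 0.00574 in MRC). Hspa9, the mitochondrial HSP70 that hands over clusters among many other clients, rose to 1850 ± 88.4 CPM in MRC+L and 1733 ± 113 CPM in MRC, against 1010 ± 84.2 CPM in PBS (adjusted p = 0.000174 in MRC+L and 0.000453 in MRC). Apart from Herc2, and Steap4 in MRC, the pathway genes named from the lists by rule kept their calls in all 9 fits with 1 library left out.

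**Figure D4:**
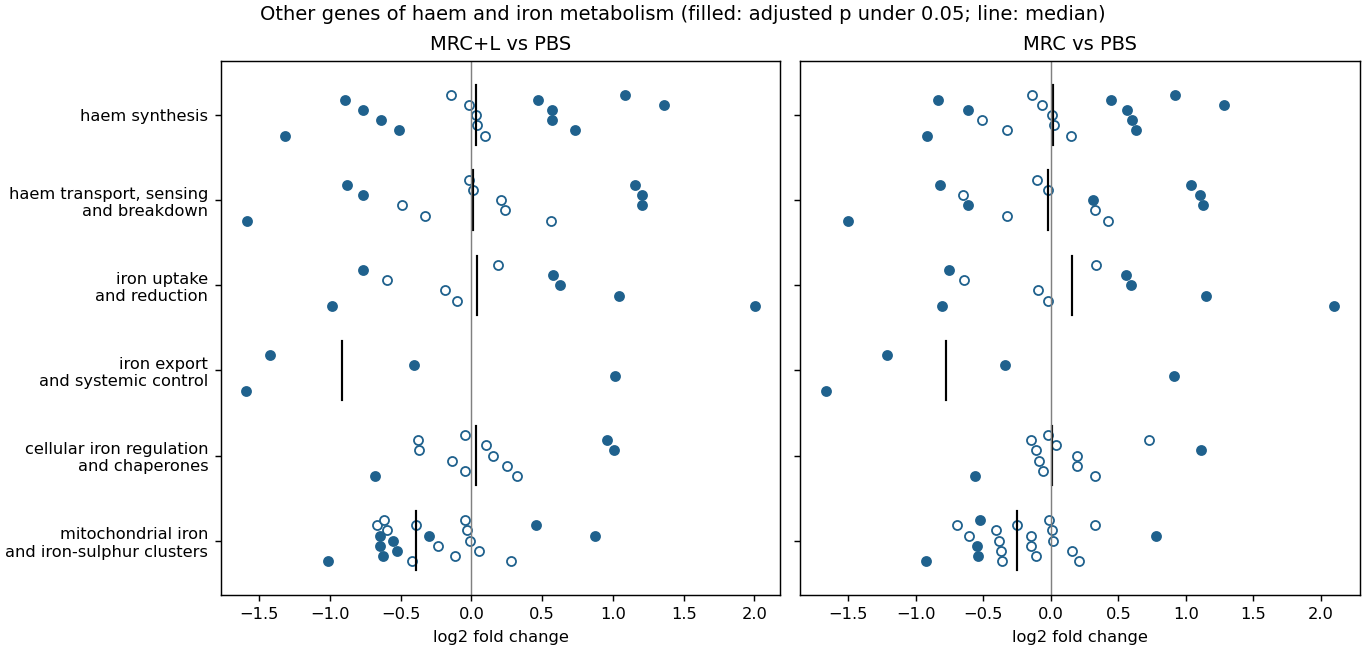
log2 fold change against PBS of each tested gene in the 6 lists, in MRC+L (left) and MRC (right), filled where the adjusted p is under 0.05, with a black line at the list's median. Each list holds genes on both sides of 0, with 18 higher and 21 lower in MRC+L and 17 higher and 16 lower in MRC.

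Profiles over the 9 libraries were compared by the root mean square difference of log2 CPM after centring each gene on its own mean, among 11276 other protein-coding genes with a proper symbol. Nearest to Hmox1 were Car6 (0.158 log2 units), Sh2d6 (0.321), Gsta4 (0.349) and Angptl6 (0.358), whose fold changes against PBS, in that order, were 23.3, 30.9, 13.2 and 14.9 in MRC+L and 19.5, 18.1, 12.1 and 12.6 in MRC. Car6 encodes a secreted carbonic anhydrase and Gsta4 a glutathione transferase. Nearest to Fth1 were Gstp1 (0.097), Cdc34 (0.107) and Gfer (0.124). Gstp1 has close copies, so its counts are uncertain. These are descriptions of 9 libraries, among which PBS replicate 2 carries much of the Fth1 profile.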

How the data were processed

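RNA of 9 libraries of 4T1 cells was sequenced after Trizol extraction and Illumina TruSeq library preparation, per the labels' protocols. Per the file headers, the authors ran featureCounts 2.0.1 in paired-end mode on exons grouped by gene (Ensembl release 104, GRCm39) and deposited the raw counts. It was run unstranded, so genes that overlap cannot be separated by strand, and multi-mapping or ambiguous reads were not counted. The aligner is not given in the sources used here. The deposited tables also give a gene length in bases, another column, used for TPM.

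Symbols came from GENCODE M21, matched by gene ID to 52083 of 55416 genes (94.0%). Genes were filtered with edgeR (minimum count 10, minimum total 15), leaving 13439, and tested with its quasi-likelihood test on all 9 libraries with TMM factors, 1 mean per group and Benjamini-Hochberg adjustment (threshold 0.05). SE is the log2 fold change over the root of F. Tools were R 4.3.3, edgeR 4.0.16, limma 3.58.1, DESeq2 1.42.0, Python 3.11.15, pandas 2.3.3, scipy 1.17.1 and matplotlib 3.10.9. Fits were also run on simulated data, but no outcome is given, so this is not offered as a check of the calls. Replicates differed beyond counting noise (chi-square per degree of freedom 3.75 to 151). The members and gene lists were chosen with earlier results of these data known. Genes were named by rule: all members, up to 3 called genes with the smallest adjusted p per list and comparison, and the nearest profiles of Hmox1 and Fth1. Outside this rule, values of Hmox2, Bach1, Nfe2l2 and Keap1 were given after they had been seen. Others outside it, such as Aco1, Heph, Hephl1 and Hamp, were named without a call. All 141 list entries but 1, Ahsp, matched 1 gene ID. Floors cover counting error only, while SD and SE include the spread between libraries.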

Additional observations from a re-analysis of the deposited data

How the results depend on the processing

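The alternatives were DESeq2 size factors, library totals, the DESeq2 test, limma-voom with sample weights, no filter on low counts, the 6 libraries of the compared groups, the replicate number as a block, removal of the trend on gene length, and each library left out in turn. Of the 10 members 4 rose for MRC against PBS with all libraries, 7 with limma-voom with sample weights, 7 with no filter and 3 to 6 with 1 library left out. For MRC+L against PBS 5 rose, 8 with limma-voom and 4 to 7 with 1 library left out. The number that fell was 1 in both comparisons under every alternative. For MRC+L against MRC 0 rose and 1, Hmox1, rose with limma-voom or with the 6 libraries of the 2 groups, and 0 to 1 with 1 library left out, the 1 being without PBS replicate 2.

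Over all genes limma-voom called 4433 higher and 4418 lower for MRC against PBS, against 2394 and 2656 with edgeR, and 4866 and 4990 for MRC+L against PBS, against 2926 and 3286. For MRC+L against MRC, where edgeR called 0, the DESeq2 test called 14, limma-voom 262, the 6 libraries alone 654, edgeR with no filter 7 higher and 8 lower, with the length trend removed 3 higher and 1 lower, and without PBS replicate 2 43 higher and 46 lower. Leaving out libraries for the gene lists and named list genes was chosen after seeing the data. The pathway genes numbered 13 to 22 higher and 10 to 23 lower for MRC against PBS with 1 library left out, and 14 to 20 higher and 13 to 27 lower for MRC+L against PBS. With limma-voom they numbered 26 and 25 for MRC against PBS, and with the 6 libraries alone 13 were lower for MRC+L against PBS.

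The labels number the replicates 1 to 3 in each group without naming a shared source. Deviations of same-numbered libraries correlated at -0.185 to 0.0385 and those of other pairs at -0.126 to 0.204, so no pairing by number was seen. With 3 libraries per group these values cannot show whether same-numbered libraries shared a source. With the replicate block 4 members rose and 1 fell for MRC against PBS, 5 rose and 1 fell for MRC+L against PBS, and 0 were called for MRC+L against MRC. Fth1 was called against PBS in both groups, and Tfrc and Ncoa4 for MRC against PBS, with limma-voom and with no filter. With the length trend removed Fth1 was called for MRC+L against PBS (log2 fold change 0.68, adjusted p = 0.039) and Tfrc for MRC against PBS (0.56, adjusted p = 0.017). Slc40a1 and 12 pathway genes were below the filter, 3 of them (Tfr2, Hjv and Ftmt) with 0 counts in all 9 libraries, and no difference in them was detectable at this depth. Why the settings differ was not tested.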
